A study of Mus musculus with 15 samples.

Results

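The 40 genes described here are interferon-stimulated genes and genes of antigen presentation, chosen by symbol from a table of 55421 mouse genes: sensors of foreign nucleic acid (*Ifih1*, *Ddx58*, *Dhx58*, *Zbp1*), transcription factors (*Stat2*, *Irf9*, *Irf7*), the ubiquitin-like modifier *Isg15* with *Usp18* and *Herc6*, the IFIT family (*Ifit1*, *Ifit2*, *Ifit3*, *Ifit3b*), the OAS family (*Oas1a*, *Oas2*, *Oasl1*, *Oasl2*), antiviral effectors (*Eif2ak2*, *Mx1*, *Mx2*, *Rsad2*, *Cmpk2*, *Bst2*, *Ifitm3*, *Samd9l*, *Trim30a*), guanylate-binding GTPases (*Gbp2*, *Gbp3*), the ADP-ribosyl transferase group (*Parp9*, *Parp14*, *Dtx3l*), other interferon-induced genes (*Ifi44*, *Ifi27*, *Ifi35*, *Xaf1*, *Rtp4*, *Lgals3bp*), and *Psmb8* and *B2m* of antigen presentation. The set was chosen with earlier results of these data known, so the counts of members below describe these libraries and are not independent support. All 40 were in the table. In total 38 entered the test of 14852 protein-coding genes with more than 1 CPM (read count scaled to library size) in at least 1 library, and *Mx1* and *Mx2*, which the table lists as polymorphic pseudogenes, did not.

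Interferons are cytokines that cells release when sensors such as RIG-I detect viral or misplaced nucleic acid. Binding to their receptors activates STAT proteins, which enter the nucleus with IRF9 and bind a short promoter element, the interferon-stimulated response element (ISRE), to switch on a broad antiviral program. In the brain, microglia, endothelium, astrocytes and neurons can all express such genes, and interferon also raises the proteasome subunits and MHC class I chains that present peptides to T cells.

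RNA was measured by bulk sequencing of punches of the rostral ventrolateral medulla (RVLM), a brainstem region that drives sympathetic outflow, from mice with floxed *Atp6ap2*, the gene of the (pro)renin receptor (PRR). Cre mice received AAV2/2 with the CMV promoter driving Cre and GFP in the RVLM, and WT mice received AAV with GFP alone, so both arms carried virus and floxed alleles. Mice were 12 to 14 weeks old when allotted to a virus. Tissue was taken 3 weeks after virus at baseline, or after 13 days of DOCA-salt (a 50 mg deoxycorticosterone acetate pellet with 0.15 M NaCl to drink), a model of hypertension, which began at least 3 weeks after virus. The 4 groups were DOCA-CRE (3 libraries), DOCA-WT (4), Baseline-CRE (4) and Baseline-WT (4). The labels call all animals female, yet give the baseline genotype as PRRf/y and the DOCA-salt genotype as PRRf/f. The baseline mice were a separate cohort, so DOCA-salt, cohort and time since virus cannot be told apart, and each Cre comparison was made within a cohort. CMV is not specific to a cell type. A punch holds both transduced and other cells, and in bulk tissue a change in cell number and a change in RNA per cell cannot be told apart. The labels do not say that each library came from 1 animal, so p-values measure the spread between these libraries, which may be technical.

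Promoter stretches of 7 members with an ISRE before the gene start are shown first, taken from the ISG15, IFIT, effector, GBP and antigen presentation groups. This is the element that STAT proteins bind with IRF9, and not every member held it in the window searched. A RefSeq table (GRCm38.p6) of 250 bases before to 50 after each gene start matched 30 of the 40 members. Not matched were *Dhx58*, *Zbp1*, *Usp18*, *Oas2*, *Mx1*, *Mx2*, *Parp9*, *Parp14*, *Ifi27* and *Rtp4*. The ISRE was searched as GAAA, any 2 bases and GAAA, on both strands with overlapping matches allowed, and was found in a promoter of 16 of the 30 members (53.3%), against 3.99% of all 27025 genes in the table. The gamma-activated site, searched as TTCNNNGAA, was found in 7 of the 30 members (23.3%), against 9.55% of all genes in the table. A match is a description of the letters and not of binding. The stretches below run 5′ to 3′ on the gene strand, with the ISRE letters in capitals. They lie at chr4:156200861-156200910 (minus strand) for *Isg15*, chr19:34583359-34583430 (plus) for *Ifit3*, chr19:34640771-34640827 (plus) for *Ifit1*, chr12:26456549-26456586 (minus) for *Rsad2*, chr3:142559985-142560028 (plus) for *Gbp3*, chr3:142620590-142620627 (plus) for *Gbp2* and chr2:122147534-122147571 (plus) for *B2m*.
Isg15: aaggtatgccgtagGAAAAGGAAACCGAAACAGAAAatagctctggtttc
Ifit3: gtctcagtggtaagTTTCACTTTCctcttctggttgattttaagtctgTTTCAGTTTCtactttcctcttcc
Ifit1: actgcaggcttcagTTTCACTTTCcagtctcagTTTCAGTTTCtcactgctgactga
Rsad2: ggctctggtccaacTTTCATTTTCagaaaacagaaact
Gbp3: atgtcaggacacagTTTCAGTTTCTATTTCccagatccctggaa
Gbp2: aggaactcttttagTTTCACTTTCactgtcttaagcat
B2m: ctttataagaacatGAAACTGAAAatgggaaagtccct

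The *Isg15* promoter held 3 overlapping matches starting 78 bases before the gene start, and *Ifit3* held 2, the first 156 bases before it. *Ifit3b*, a near copy of *Ifit3* on the same chromosome, carries the identical 72 bases at chr19:34607755-34607826. Reads of *Ifit3* and *Ifit3b* may be divided between the copies, so the split between them is uncertain. *Gbp3* held 2 overlapping matches starting 45 bases before its start, *Gbp2* 1 at 59 bases, *Rsad2* 1 at 120 bases and *B2m* 1 at 139 bases before theirs. *Stat2*, *Ddx58* and *Eif2ak2* held 1 match each that is not printed, in *Ddx58* and *Eif2ak2* just after the gene start. Among the members matched in the table but without an ISRE in this window were *Irf7*, *Irf9*, *Ifi44*, *Herc6*, *Oasl2*, *Dtx3l* and *Psmb8*. Several members are neighbours. *Ifit2*, *Ifit3*, *Ifit3b* and *Ifit1* lie between 34550694 and 34650009 on chromosome 19 (GRCm38, Gencode vM21), *Rsad2* and *Cmpk2* are adjacent on chromosome 12, and *Dtx3l* and *Parp9* overlap on opposite strands of chromosome 16 between 35938470 and 35939151.

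Library totals ran from 19053970 to 30504796 counts. *Atp6ap2* stood at 90.2, 89.6 and 145 CPM in the DOCA-CRE libraries, against 134 to 154 CPM in DOCA-WT, and at 106 to 126 CPM in Baseline-CRE, against 114 to 139 CPM in Baseline-WT. The 145 CPM library goes against its label and is called the library labelled DOCA-CRE 3. Counts over the whole gene can miss a deletion of 1 exon. That library also had 19.1% of its counts in mitochondrial rRNA, against 3.32% to 4.80% in the other DOCA-CRE libraries and 2.42% to 5.84% in DOCA-WT. In the baseline cohort this share was 20.3% to 25.5% in Baseline-CRE and 20.7% to 28.8% in Baseline-WT, so by this share alone the library labelled DOCA-CRE 3 lay nearer to the baseline libraries. Its number of genes detected, given next, lay above every baseline library. So did its level of *Tph2*, of serotonergic neurons, at 48.9 CPM, against 1.33 to 4.30 CPM at baseline. Genes with at least 1 count numbered 26668 in DOCA-CRE 1, the fewest of the 15 libraries, and 41743 and 42650 in the other DOCA-CRE libraries, against 33353 to 37546 in DOCA-WT, and 27648 to 29549 in Baseline-CRE, against 26853 to 30368 in Baseline-WT. Sex-linked genes gave a male pattern in 2 of 3 DOCA-CRE, 1 of 4 DOCA-WT, 2 of 4 Baseline-CRE and 1 of 4 Baseline-WT libraries, against labels of female. The 2 in DOCA-CRE were DOCA-CRE 1 and DOCA-CRE 2. *Pnmt*, the adrenaline-synthesizing enzyme that defines C1 neurons of the RVLM, stood at 0.0410 to 0.508 CPM in DOCA-CRE, 0.179 to 1.26 CPM in DOCA-WT, 0 to 0.234 CPM in Baseline-CRE and 0 to 0.244 CPM in Baseline-WT.

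Interferon-stimulated genes leaned to higher levels in Cre mice than in WT mice in both cohorts, but no single member passed the test in either. On DOCA-salt, 37 of the 38 members tested were on the higher side, against 54.3% of all genes tested, with a median log2 difference of 0.67 (1.59-fold), against 0.02 for all genes. The highest were *Ifi44* (log2 difference 1.61 ± 0.48 SE), *Usp18* (1.43 ± 0.49) and *Oasl1* (1.36 ± 0.60), and only *Cmpk2*, a mitochondrial nucleotide kinase, was on the lower side (−0.11 ± 0.15). By edgeR's quasi-likelihood test with Benjamini-Hochberg adjustment over all 14852 genes, 0 members passed an adjusted p of 0.05 on DOCA-salt, where 0.00673% of all genes passed as higher and 0.0135% as lower. The lowest adjusted p was 0.131 (*Ddx58*). At an unadjusted p below 0.05, 22 members were higher and 0 lower, against 6.91% of all genes higher and 7.5% lower. DESeq2 called 2 members (*Ddx58*, adjusted p = 0.0276, and *Oasl2*, adjusted p = 0.0490), where it called 281 of 14852 genes in all. Limma voom called 0 members, and 12 were higher at an unadjusted p below 0.05, against 4.63% of all genes.

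At baseline, 34 of 38 members were on the higher side in Cre mice, against 48.6% of all genes, with a median log2 difference of 0.37 (1.29-fold), against −0.01 for all genes. The highest was *Gbp2* (1.16 ± 0.41), and the 4 on the lower side were *Ifi27* (−0.50 ± 0.29), *Dhx58* (−0.44 ± 0.30), *Oasl1* (−0.41 ± 0.73) and *Xaf1* (−0.03 ± 0.23). EdgeR's adjusted p reached 0.434 at the lowest, and 0 members passed, as did 0% of all genes. Unadjusted p-values below 0.05 were found for 7 members, all higher, against 4.86% of all genes higher and 5.22% lower, and DESeq2 and limma voom each called 0. In limma voom 18 members were higher and 1 lower at that level, against 8.36% of all genes higher, with a median of 0.49, so the order of the cohorts in this count was the other way round in that fit. The cohorts share no libraries, and 33 members were on the higher side in both, against 22.7% of all genes. The mean of both Cre shifts had a median of 0.55 over the members, with 36 on the higher side, against 49.5% of all genes. For that mean 0 members were called by edgeR (lowest adjusted p 0.739), by DESeq2 or by limma voom, while 20 were higher at an unadjusted p below 0.05, against 3.78% of all genes. Without DOCA-CRE 1 that count was 11 (2.98% of all genes) and the median 0.34, and without DOCA-CRE 1 and Baseline-CRE 1 together they were 7 (2.66%) and 0.30. Sums of neuronal markers also separated the baseline groups. The 8 pan-neuronal markers summed to 8178 to 11476 CPM in Baseline-CRE, against 12167 to 16412 CPM in Baseline-WT (2 on the higher side, median −0.31, 4 lower at an unadjusted p below 0.05). The 5 cholinergic motor neuron markers summed to 27.7 to 1035 CPM in Baseline-CRE, against 1168 to 1752 CPM in Baseline-WT (0 on the higher side, median −1.40), and the 6 C1 neuron markers to 181 to 255 CPM, against 139 to 176 CPM (4 on the higher side, median 0.60). Most of the C1 sum was the glutamate transporter gene *Slc17a6* (152 CPM on average over all libraries). *Th* and *Dbh*, of catecholamine neurons, overlapped between the baseline groups. *Th* stood at 2.09 to 6.84 CPM in Baseline-CRE, against 0.899 to 3.01 CPM in Baseline-WT, and *Dbh* at 3.82 to 14.7 CPM, against 4.13 to 7.97 CPM. The part of these cells in the baseline shift was not tested.

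**Figure D1:**
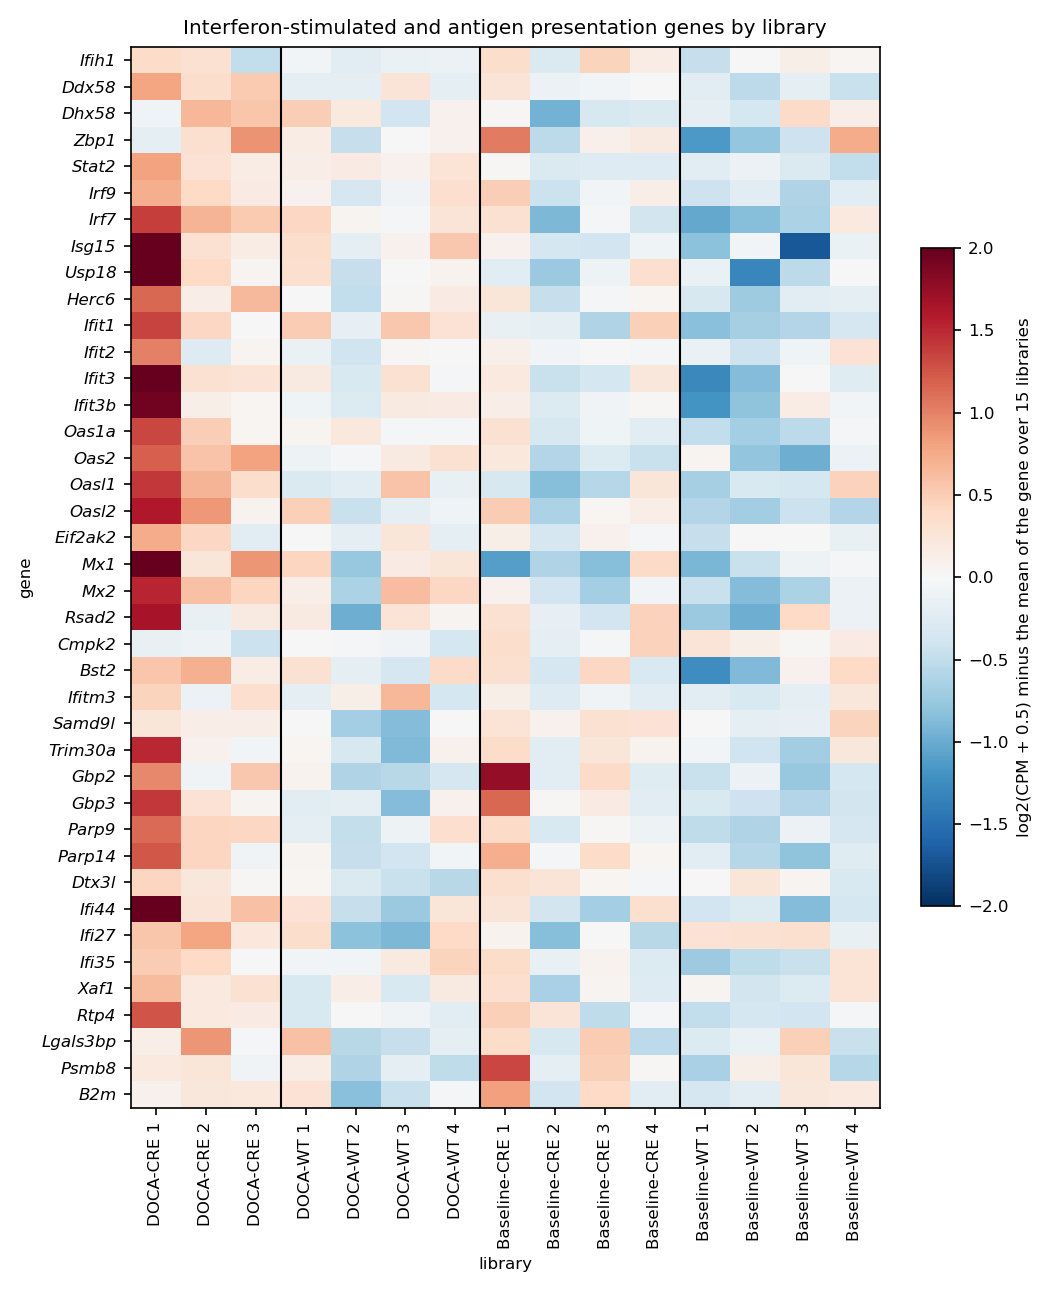
Level of each of the 40 genes (rows) in each of the 15 libraries (columns), as log2(CPM + 0.5) minus the mean of the gene over the libraries, with colours ending at 2 on either side. DOCA-CRE 1 was the highest library for 26 of the 38 genes tested, and *Gbp2*, *Psmb8* and *B2m* were highest in Baseline-CRE 1.

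**Figure D2:**
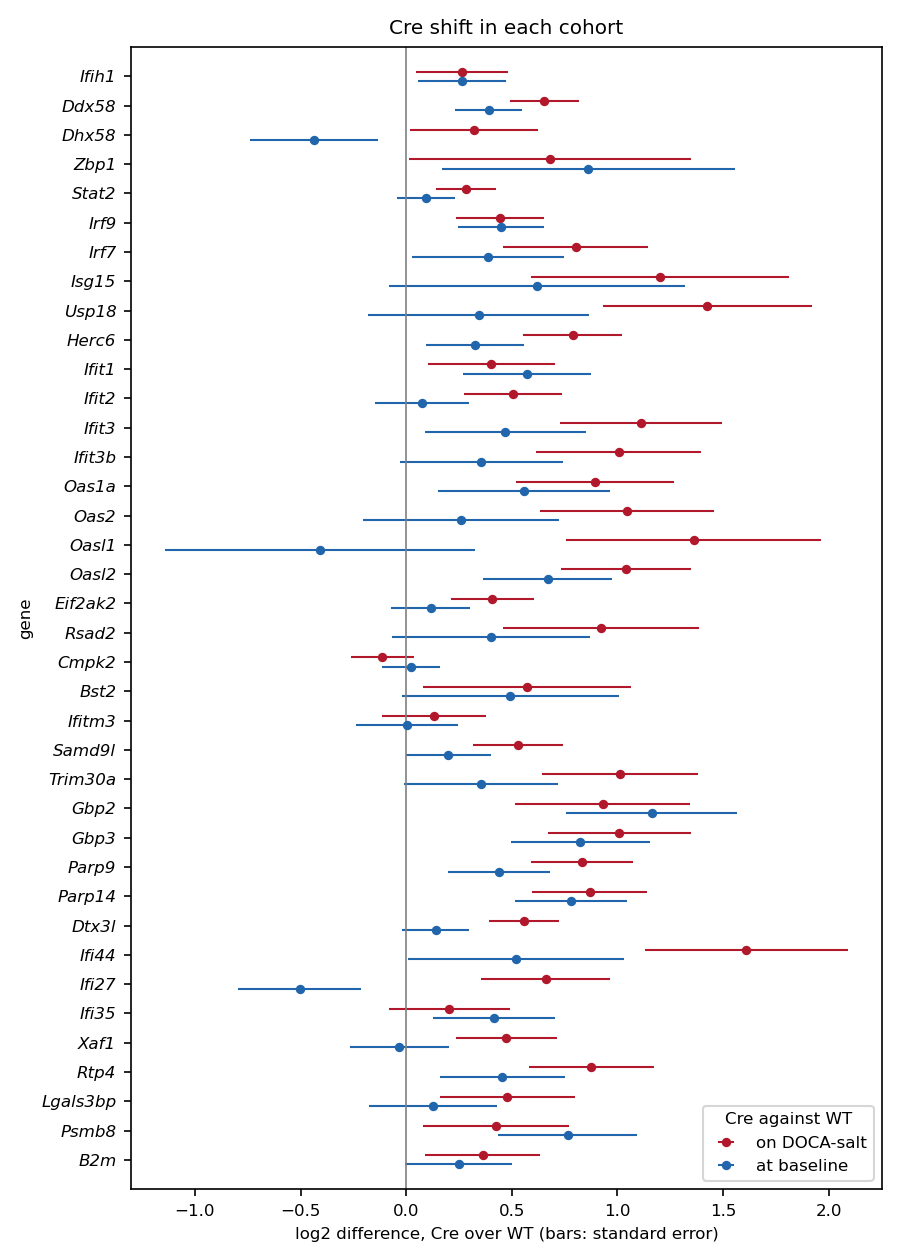
Log2 difference of Cre over WT mice for the 38 genes tested, on DOCA-salt (red) and at baseline (blue), with bars for the standard error of edgeR's fit. On DOCA-salt 37 genes lie right of 0, and at baseline 34 do.

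Among the sensors, *Ddx58* separated Cre from WT mice in both cohorts. *Ddx58* encodes RIG-I, which binds viral RNA in the cytoplasm. It stood at 15.9, 11.6 and 13.1 CPM in DOCA-CRE, against 7.84, 7.88, 10.9 and 7.86 CPM in DOCA-WT. In the baseline cohort the levels were 10.9, 8.24, 8.68 and 8.97 CPM in Cre mice, against 7.62, 6.11, 7.79 and 6.48 CPM in WT mice. Every Cre library lay above every WT library of its cohort, by a small margin where DOCA-WT 3 approached DOCA-CRE 2. The log2 difference was 0.65 ± 0.16 on DOCA-salt and 0.39 ± 0.16 at baseline (edgeR adjusted p = 0.131 and 0.445). An exact two-sided permutation test over libraries gave p = 0.0571 on DOCA-salt and p = 0.0286 at baseline, the smallest that 4 against 4 libraries can give. Over all genes tested, 3.89% had Cre above WT without overlap on DOCA-salt, 3.89% at baseline and 0.0539% in both, and *Ddx58* was the 1 member in both. The other sensors overlapped between groups. *Ifih1* (MDA5, another RNA sensor) differed by 0.27 ± 0.22 on DOCA-salt and 0.26 ± 0.21 at baseline. *Dhx58* (LGP2, a regulator of both) differed by 0.32 ± 0.30 and −0.44 ± 0.30. *Zbp1*, a sensor of Z-form nucleic acid that can trigger cell death, was near the detection limit, with as little as 1 count in a library.

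The transcription factors that carry the interferon signal were on the higher side in both cohorts, with *Irf7* separate on DOCA-salt. *Irf7*, which switches on interferon alpha genes, stood at 8.78, 5.19 and 4.63 CPM in DOCA-CRE, against 4.23, 3.21, 3.01 and 3.77 CPM in DOCA-WT. Without DOCA-salt it stood at 3.88, 1.41, 2.96 and 2.26 CPM in Cre mice, against 1.26, 1.47, 1.80 and 3.57 CPM in WT mice. The DOCA-salt groups did not overlap (0.80 ± 0.34, edgeR adjusted p = 0.301, exact permutation p = 0.0286, the smallest possible), while at baseline WT 4 lay above 3 of the Cre libraries (0.39 ± 0.36). *Irf9*, the DNA-binding part of the complex that recognizes the ISRE, stood at 19.9, 15.7 and 13.3 CPM in DOCA-CRE, against 12.5, 9.22, 11.2 and 14.9 CPM in DOCA-WT. Baseline levels of *Irf9* were 16.7, 8.63, 11.3 and 12.9 CPM in Cre mice, against 8.67, 10.1, 7.57 and 9.97 CPM in WT mice. The shift of *Irf9* was alike in size in both cohorts, 0.44 ± 0.21 on DOCA-salt and 0.45 ± 0.20 at baseline (edgeR adjusted p = 0.346 and 0.481), and 1 library overlapped each time. *Stat2*, the partner of IRF9 in that complex, stood at 43.2, 30.2 and 27.4 CPM in DOCA-CRE, against 27.1, 27.7, 26.2 and 29.8 CPM in DOCA-WT. Its baseline levels were 25.1, 20.0, 20.6 and 20.6 CPM in Cre mice, against 20.9, 22.6, 20.0 and 17.3 CPM in WT mice. DOCA-CRE 1 and Baseline-CRE 1 stood above the rest of their cohorts, and the other Cre libraries lay close to or within the WT range (0.28 ± 0.14 and 0.09 ± 0.14, edgeR adjusted p = 0.381 and 0.855).

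The ISG15 system gave some of the widest shifts, and they came mostly from 1 library. ISG15 is a small protein that is attached to others, HERC6 is the enzyme that attaches it in mice, and USP18 removes it and dampens interferon signalling. *Herc6* stood at 20.6, 9.84 and 14.3 CPM in DOCA-CRE, against 9.02, 6.26, 9.12 and 10.1 CPM in DOCA-WT, and only WT 4 reached into the Cre range. At baseline the values were 10.8, 6.39, 8.74 and 9.20 CPM in Cre mice, against 7.13, 5.29, 7.64 and 7.86 CPM in WT mice. The log2 difference was 0.79 ± 0.23 on DOCA-salt and 0.33 ± 0.23 at baseline (edgeR adjusted p = 0.170 and 0.650). *Isg15* and *Usp18*, singled out after their values were seen, were high in 1 library. *Isg15* stood at 6.77, 1.503 and 1.30 CPM in DOCA-CRE, against 1.56, 0.918, 1.22 and 1.85 CPM in DOCA-WT. *Usp18* stood at 13.5, 3.27 and 2.48 CPM in DOCA-CRE, against 3.08, 1.59, 2.37 and 2.51 CPM in DOCA-WT. For both genes DOCA-CRE 1 stood far above all other libraries, and DOCA-CRE 2 and the library labelled DOCA-CRE 3 lay in or near the WT range. Baseline shifts were 0.62 ± 0.70 for *Isg15* and 0.34 ± 0.52 for *Usp18*.

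IFIT proteins bind viral RNA that lacks the cap marks of the host and block its translation. *Ifit3* stood at 62.5, 18.2 and 17.8 CPM in DOCA-CRE, against 16.7, 11.7, 18.2 and 14.3 CPM in DOCA-WT. Among baseline mice it stood at 16.9, 10.6, 11.3 and 17.2 CPM in Cre mice, against 5.66, 7.82, 14.7 and 12.2 CPM in WT mice. Away from DOCA-CRE 1 the groups overlapped (1.11 ± 0.39 on DOCA-salt and 0.47 ± 0.38 at baseline, edgeR adjusted p = 0.219 and 0.703). *Ifit2* stood at 38.1, 15.7 and 19.6 CPM in DOCA-CRE, against 17.1, 14.1, 19.0 and 18.7 CPM in DOCA-WT, and at baseline at 20.2, 18.0, 18.8 and 18.3 CPM in Cre mice, against 17.1, 14.0, 17.6 and 23.02 CPM in WT mice. *Ifit1* stood at 18.3, 9.32 and 6.88 CPM in DOCA-CRE, against 9.97, 6.09, 10.2 and 8.59 CPM in DOCA-WT, and at baseline at 6.17, 5.94, 4.37 and 9.75 CPM in Cre mice, against 3.63, 4.15, 4.42 and 5.35 CPM in WT mice. The same library was the highest for both. The Cre shift of *Ifit1* was 0.40 ± 0.30 on DOCA-salt and 0.57 ± 0.30 at baseline. *Ifit3b* differed by 1.01 ± 0.39 on DOCA-salt and 0.36 ± 0.39 at baseline.

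All 4 OAS genes were on the higher side on DOCA-salt, and 3 of 4 were at baseline. OAS enzymes make short adenylate chains that activate an RNA-cutting enzyme, RNase L, and in mice OASL1 restrains translation of *Irf7*. *Oasl2* stood at 32.8, 19.7 and 11.1 CPM in DOCA-CRE, against 14.8, 7.59, 9.08 and 9.88 CPM in DOCA-WT. In the baseline cohort it stood at 15.1, 6.58, 10.8 and 11.5 CPM in Cre mice, against 6.85, 6.27, 7.72 and 6.81 CPM in WT mice. In each cohort 1 Cre library fell within the WT range, the library labelled DOCA-CRE 3 and Baseline-CRE 2 (1.04 ± 0.31 and 0.67 ± 0.31, edgeR adjusted p = 0.169 and 0.485). *Oas2* stood at 2.75, 1.62 and 1.97 CPM in DOCA-CRE, against 0.820, 0.876, 1.11 and 1.26 CPM in DOCA-WT, and at baseline at 1.15, 0.447, 0.677 and 0.546 CPM in Cre mice, against 0.979, 0.326, 0.225 and 0.810 CPM in WT mice. The DOCA-salt groups of *Oas2* did not overlap (1.05 ± 0.41, edgeR adjusted p = 0.271, exact permutation p = 0.0286), and the baseline groups did (0.26 ± 0.46). *Oasl1* stood at 2.22, 1.13 and 0.790 CPM in DOCA-CRE, against 0.328, 0.375, 1.005 and 0.419 CPM in DOCA-WT, and at baseline at 0.318, 0.0639, 0.185 and 0.702 CPM in Cre mice, against 0.140, 0.326, 0.2997 and 0.892 CPM in WT mice. DOCA-WT 3 lay within the DOCA-CRE range, and at baseline 1 count was the lowest of a library, so the level of *Oasl1* there rests on few reads. *Oas1a* differed by 0.89 ± 0.37 and 0.56 ± 0.41.

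**Figure D3:**
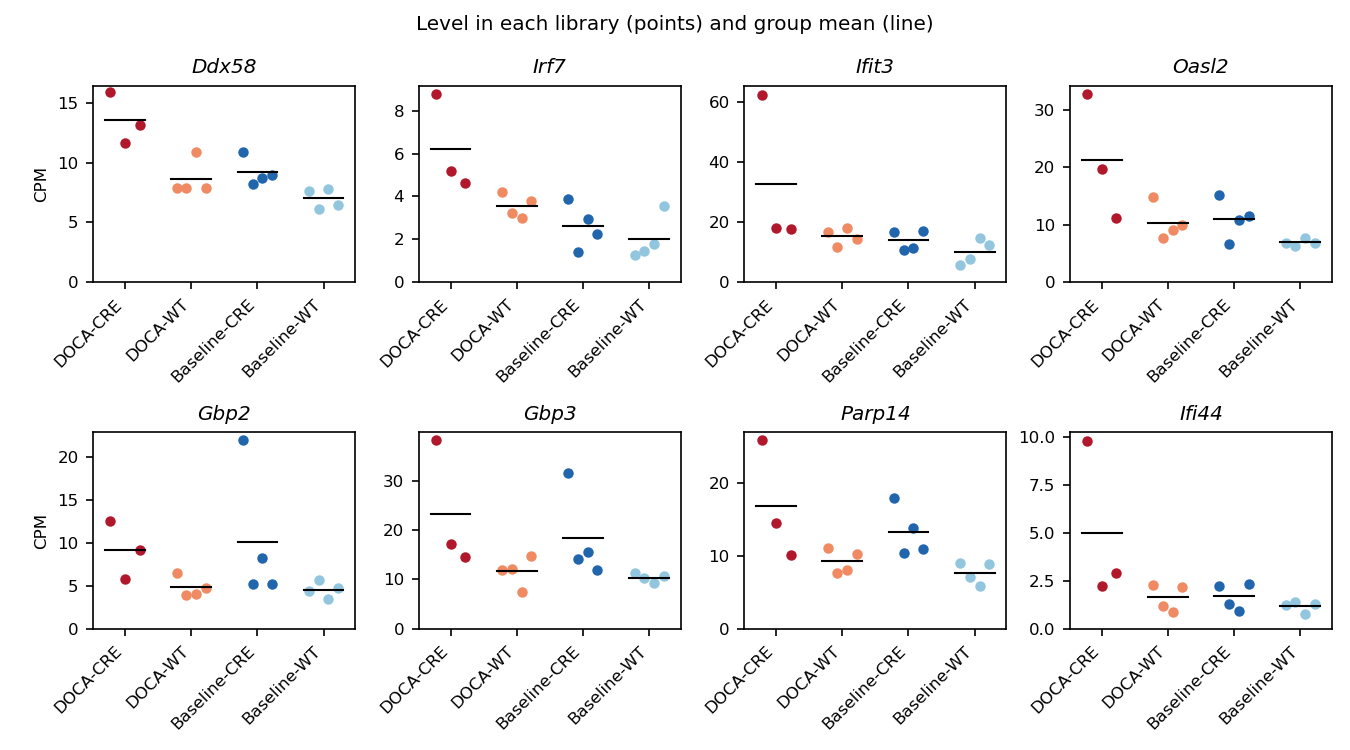
CPM of 8 members in each library (points) with the mean of each group (line), from DOCA-CRE at the left to Baseline-WT at the right. *Ddx58* did not overlap between Cre and WT in either cohort, while *Ifit3* and *Ifi44* owed most of the DOCA-CRE mean to 1 library, at 62.5 and 9.81 CPM.

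The antiviral effectors were mixed. *Eif2ak2* encodes PKR, a kinase that halts translation when it binds viral RNA. It stood at 31.8, 25.4 and 16.1 CPM in DOCA-CRE, against 18.7, 16.4, 22.4 and 16.3 CPM in DOCA-WT. At baseline it stood at 20.6, 14.9, 20.0 and 18.5 CPM in Cre mice, against 13.6, 19.1, 18.7 and 16.9 CPM in WT mice. Groups overlapped in both cohorts, with the library labelled DOCA-CRE 3 below all DOCA-WT libraries (0.41 ± 0.19 and 0.12 ± 0.19, edgeR adjusted p = 0.352 and 0.870). *Cmpk2*, the neighbour of *Rsad2*, stood at 23.5, 24.3 and 19.5 CPM in DOCA-CRE, against 26.3, 25.6, 24.9 and 20.6 CPM in DOCA-WT. Its baseline levels were 33.6, 22.9, 25.6 and 36.3 CPM in Cre mice, against 31.6, 28.5, 26.8 and 29.3 CPM in WT mice. It differed by −0.11 ± 0.15 on DOCA-salt and 0.02 ± 0.14 at baseline, with overlapping groups. *Rsad2* (viperin, an antiviral enzyme) differed by 0.92 ± 0.46 and 0.40 ± 0.47. *Trim30a*, a TRIM protein of mice, differed by 1.01 ± 0.37 and 0.36 ± 0.36. *Samd9l*, a restraint on virus and cell growth, did not overlap on DOCA-salt, at 10.97 to 11.98 CPM in DOCA-CRE, against 5.28 to 10.1 CPM in DOCA-WT (0.53 ± 0.21). Its edgeR adjusted p was 0.282 and its exact permutation p was 0.143. *Bst2* (tetherin, which holds budding virus on the cell) and *Ifitm3* (which blocks virus entry) differed by 0.57 ± 0.49 and 0.13 ± 0.25 on DOCA-salt, and by 0.49 ± 0.51 and 0.01 ± 0.24 at baseline.

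*Mx1* and *Mx2*, dynamin-like GTPases that trap viral particles, were fitted only in an alternative with all biotypes. *Mx1* stood at 6.81, 1.09 and 1.97 CPM in DOCA-CRE, against 1.31, 0.292, 1.005 and 1.08 CPM in DOCA-WT. *Mx2* stood at 6.40, 3.08 and 2.71 CPM in DOCA-CRE, against 2.13, 1.04, 3.16 and 2.69 CPM in DOCA-WT. DOCA-CRE 1 again led, and the other Cre libraries lay close to WT. In that fit the Cre shift on DOCA-salt was 1.80 ± 0.65 for *Mx1* and 0.83 ± 0.37 for *Mx2* (edgeR adjusted p = 0.226 and 0.328), and at baseline −0.21 ± 0.77 and 0.35 ± 0.40. Both rose in that fit in Cre mice on DOCA-salt against Cre mice at baseline, *Mx1* by 2.76 ± 0.71 and *Mx2* by 1.41 ± 0.39 (edgeR adjusted p = 0.0301 and 0.0397), where 1399 of 18756 genes were called. Baseline-CRE libraries held 0.127 to 1.25 CPM of *Mx1* and 0.985 to 2.04 CPM of *Mx2*, so 1 Baseline-CRE library of *Mx1* lay above DOCA-CRE 2.

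The guanylate-binding GTPases had Cre shifts of similar size in both cohorts. GBP proteins gather on vacuoles that hold pathogens and are strongly induced by interferon gamma. *Gbp3* stood at 38.4, 17.2 and 14.6 CPM in DOCA-CRE, against 12.02, 12.2, 7.50 and 14.8 CPM in DOCA-WT. In the baseline cohort the levels were 31.7, 14.2, 15.7 and 11.9 CPM in Cre mice, against 11.3, 10.3, 9.22 and 10.8 CPM in WT mice. The baseline groups did not overlap (exact permutation p = 0.0286), and on DOCA-salt only the library labelled DOCA-CRE 3 fell below the highest WT library. The log2 difference of *Gbp3* was 1.01 ± 0.34 on DOCA-salt and 0.82 ± 0.33 at baseline (edgeR adjusted p = 0.204 and 0.443). *Gbp2* stood at 12.5, 5.82 and 9.14 CPM in DOCA-CRE, against 6.52, 3.88, 4.02 and 4.78 CPM in DOCA-WT. Its baseline levels were 21.95, 5.24, 8.19 and 5.15 CPM in Cre mice, against 4.40, 5.62, 3.45 and 4.70 CPM in WT mice. Baseline-CRE 1 stood above every other library, and both cohorts overlapped by 1 WT library (0.93 ± 0.41 and 1.16 ± 0.41, edgeR adjusted p = 0.322 and 0.434).

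All 3 genes of the ADP-ribosyl transferase group were on the higher side in both cohorts. PARP9 and DTX3L form a complex that joins ADP-ribosylation with ubiquitin transfer, and PARP14 is a related mono-ADP-ribosyl transferase. *Parp14* stood at 25.8, 14.4 and 10.04 CPM in DOCA-CRE, against 11.04, 7.55, 7.97 and 10.2 CPM in DOCA-WT. Without DOCA-salt it stood at 17.8, 10.3, 13.7 and 10.9 CPM in Cre mice, against 9.02, 7.01, 5.84 and 8.83 CPM in WT mice. The baseline groups were separate (0.78 ± 0.27, edgeR adjusted p = 0.434, exact permutation p = 0.0286), and on DOCA-salt the library labelled DOCA-CRE 3 lay within the WT range (0.87 ± 0.27, edgeR adjusted p = 0.184). *Parp9* stood at 12.8, 7.67 and 7.62 CPM in DOCA-CRE, against 4.88, 3.84, 5.13 and 7.19 CPM in DOCA-WT. Baseline levels of *Parp9* were 7.38, 4.41, 5.67 and 5.15 CPM in Cre mice, against 3.77, 3.503, 5.10 and 4.30 CPM in WT mice. The DOCA-salt groups did not overlap (0.83 ± 0.24, edgeR adjusted p = 0.169, exact permutation p = 0.0571), and the baseline groups did through Baseline-CRE 2 (0.44 ± 0.24). *Dtx3l*, whose start overlaps that of *Parp9* on the other strand, stood at 20.5, 17.7 and 15.3 CPM in DOCA-CRE, against 15.5, 12.2, 10.9 and 10.1 CPM in DOCA-WT. At baseline the values were 18.9, 18.1, 15.5 and 14.7 CPM in Cre mice, against 15.2, 18.0, 15.6 and 12.2 CPM in WT mice. Only DOCA-WT 1 reached the DOCA-CRE range, and the baseline groups overlapped widely (0.56 ± 0.17 and 0.14 ± 0.16, edgeR adjusted p = 0.170 and 0.806). In all, 7 members had every DOCA-CRE library above every DOCA-WT library (*Ddx58*, *Irf7*, *Oas2*, *Samd9l*, *Parp9*, *Xaf1* and *Rtp4*), and 3 had every Baseline-CRE library above every Baseline-WT library (*Ddx58*, *Gbp3* and *Parp14*), against 3.89% of all genes in each cohort.

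Of the other interferon-induced genes, *Ifi44* had the largest Cre shift on DOCA-salt among the 38 members tested. IFI44 is a cytoplasmic protein that slows cell growth. It stood at 9.81, 2.22 and 2.93 CPM in DOCA-CRE, against 2.30, 1.17, 0.861 and 2.20 CPM in DOCA-WT. Among baseline mice it stood at 2.23, 1.28, 0.924 and 2.34 CPM in Cre mice, against 1.26, 1.38, 0.749 and 1.30 CPM in WT mice. Only DOCA-CRE 1 stood far above the WT range (1.61 ± 0.48 and 0.52 ± 0.51, edgeR adjusted p = 0.170 and 0.767). *Rtp4*, a chaperone of cell-surface receptors, was separate on DOCA-salt at 3.95 to 8.98 CPM in DOCA-CRE, against 2.71 to 3.42 CPM in DOCA-WT (0.88 ± 0.30, edgeR adjusted p = 0.208, exact permutation p = 0.0286). *Xaf1*, which counters an inhibitor of cell death, did not overlap there, at 7.29 to 9.97 CPM in DOCA-CRE, against 4.96 to 7.16 CPM in DOCA-WT (0.48 ± 0.24). Its edgeR adjusted p was 0.380 and its exact permutation p was 0.0857, and it differed by −0.03 ± 0.23 at baseline. *Lgals3bp*, a secreted glycoprotein, stood at 29.6, 50.2 and 26.1 CPM in DOCA-CRE, against 40.8, 18.1, 19.3 and 23.3 CPM in DOCA-WT, and at baseline at 34.7, 21.5, 38.4 and 18.6 CPM in Cre mice, against 22.2, 24.5, 37.5 and 19.7 CPM in WT mice. Its libraries varied widely within every group. *Ifi35* differed by 0.20 ± 0.29 and 0.42 ± 0.29.

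The antigen presentation members, *Psmb8* and *B2m*, were on the higher side in both cohorts, and the highest library of each was a baseline library. *Psmb8* encodes a subunit of the immunoproteasome, which cuts proteins into peptides for MHC class I. It stood at 5.99, 6.24 and 4.91 CPM in DOCA-CRE, against 5.78, 3.25, 4.49 and 3.53 CPM in DOCA-WT. In the baseline cohort it stood at 13.9, 4.54, 7.39 and 5.30 CPM in Cre mice, against 3.15, 5.70, 6.22 and 3.32 CPM in WT mice. *B2m*, the light chain of MHC class I and the member with the most CPM per kilobase (97.4 on average, with *Ifi27* next at 18.2), stood at 85.5, 94.2 and 93.0 CPM in DOCA-CRE, against 99.0, 44.9, 59.1 and 79.8 CPM in DOCA-WT. Its baseline levels were 143, 62.0, 106 and 69.6 CPM in Cre mice, against 63.8, 69.7, 94.4 and 92.3 CPM in WT mice. Baseline-CRE 1 was the highest of all 15 libraries for both genes, and the groups otherwise overlapped. The Cre shift of *Psmb8* was 0.43 ± 0.34 on DOCA-salt and 0.76 ± 0.33 at baseline, and that of *B2m* was 0.36 ± 0.27 and 0.25 ± 0.25 (lowest edgeR adjusted p of these 0.464).

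The shift was uneven within the Cre groups. DOCA-CRE 1 was the highest of all 15 libraries for 26 of 38 members, a rank it held for 16.4% of all genes, and Baseline-CRE 1 was the highest for 4 members, against 2.59% of all genes. DOCA-CRE 2 was the highest for another 4, against 8.6%. Any DOCA-CRE library was the highest for 30 members, against 32.6% of all genes, and any Baseline-CRE library for 6, against 14.7%. DOCA-CRE 1 was at least 2-fold above the mean of the other DOCA-CRE libraries for 15 members, led by *Isg15* (4.83-fold), *Usp18* (4.68-fold), *Ifi44* (3.81-fold), *Ifit3b* (3.73-fold) and *Ifit3* (3.48-fold). Baseline-CRE 1 was at least 2-fold above the mean of the other Baseline-CRE libraries for 5 members, *Gbp2* (3.54-fold), *Zbp1* (2.89-fold), *Psmb8* (2.43-fold), *Gbp3* (2.28-fold) and *Oas2* (2.06-fold). *Gbp3* alone passed this limit in both, at 2.42-fold in DOCA-CRE 1. In Baseline-CRE 1, *Isg15* stood at 1.44-fold and *Usp18* at 0.91-fold of the other Baseline-CRE libraries, and in DOCA-CRE 1, *Psmb8* stood at 1.07-fold and *B2m* at 0.91-fold of the other DOCA-CRE libraries. The median deviation of the members from their own means was 0.99 in DOCA-CRE 1, 0.31 in DOCA-CRE 2, 0.15 in the library labelled DOCA-CRE 3 and −0.28 to 0.06 in DOCA-WT, on the log2 scale. DOCA-CRE 1 was also the library with the fewest genes detected, and the part of this in its levels was not tested. At baseline it was 0.31 in Baseline-CRE 1, −0.31 to −0.03 in the other Baseline-CRE libraries and −0.40 to −0.11 in Baseline-WT.

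Without DOCA-CRE 1, 35 of 37 members were on the higher side on DOCA-salt, but the median was 0.39 and 3 members instead of 22 were higher at an unadjusted p below 0.05, against 5.44% of all genes. Those 3 were *Ddx58* (0.52), *Dtx3l* (0.45) and *Parp9* (0.54). The log2 difference without that library was 0.02 for *Isg15*, 0.07 for *Rsad2* and *Ifit3b*, 0.24 for *Ifit3*, 0.27 for *Usp18* and −0.10 for *Ifit1*. Without the library labelled DOCA-CRE 3, the median was 0.78, 27 members were higher at an unadjusted p below 0.05 (8.58% of all genes), and edgeR called 2, *Oasl2* (1.34, adjusted p = 0.0345) and *Parp14* (1.13, adjusted p = 0.0495), among 183 of 14617 genes called. Without Baseline-CRE 1, 30 of 38 members were on the higher side at baseline with a median of 0.26, and 1 member instead of 7 was higher at an unadjusted p below 0.05 (*Parp14*, 0.60), against 4.76% of all genes. *Gbp2* then differed by 0.45, *Gbp3* by 0.42, *Psmb8* by 0.32 and *B2m* by −0.02.

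**Figure D4:**
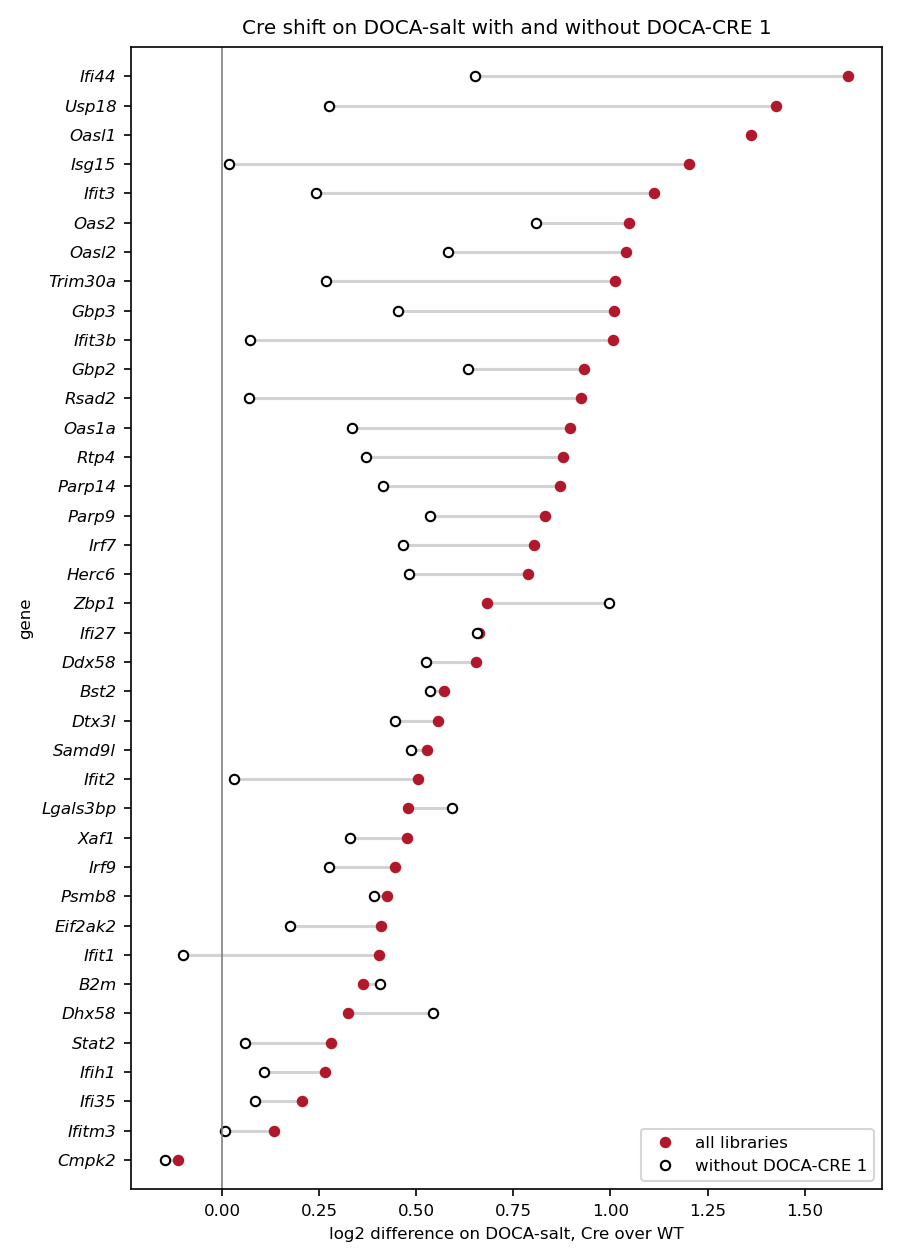
Log2 difference of Cre over WT on DOCA-salt for each gene tested, with all libraries (filled) and without DOCA-CRE 1 (open). *Isg15* moved to 0.02 and *Ifit1* to −0.10, while *Ddx58* stood at 0.52 and *Ifi27* at 0.66 (*Oasl1*, under the CPM minimum without that library, has no open point).

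**Figure D5:**
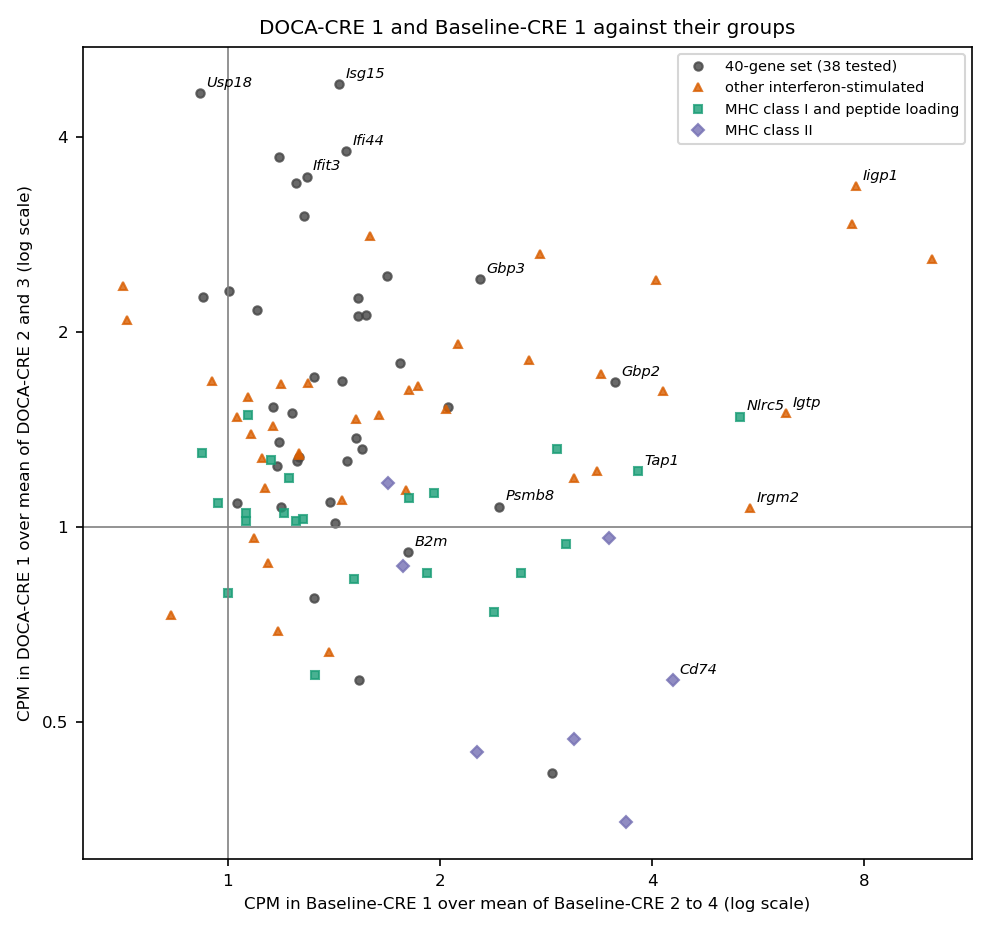
Ratio of DOCA-CRE 1 to the mean of the other DOCA-CRE libraries (vertical, log scale) against the ratio of Baseline-CRE 1 to the mean of the other Baseline-CRE libraries (horizontal, log scale), for the 38 genes tested and for listed genes with a mean of at least 1 CPM. *Isg15*, *Usp18* and *Ifi44* lie high and near 1 on the horizontal axis, while *Tap1*, *Nlrc5*, *Igtp* and *Irgm2* lie far right.

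The Cre shift on DOCA-salt was set against the Cre shift at baseline by a difference term. The difference was positive for 31 of 38 members, against 54.5% of all genes, with a median of 0.36, against 0.04 for all genes. In limma voom it was positive for 23, with a median of 0.13. By edgeR 0 members passed (lowest adjusted p 0.183), against 0.0337% of all genes with a larger shift on DOCA-salt, and DESeq2 and limma voom also called 0, while 1 member had an unadjusted p below 0.05, against 8.21% of all genes. That member was *Ifi27*, a small interferon-induced membrane protein. It stood at 37.0, 43.9 and 28.9 CPM in DOCA-CRE, against 32.1, 14.0, 13.3 and 33.3 CPM in DOCA-WT, and at baseline at 26.2, 13.7, 24.8 and 16.9 CPM in Cre mice, against 30.6, 31.2, 31.5 and 22.6 CPM in WT mice. DOCA-CRE libraries lay above or among the DOCA-WT libraries, and Baseline-CRE libraries below or among the Baseline-WT libraries, giving shifts of 0.66 ± 0.30 and −0.50 ± 0.29 and a difference of 1.17 ± 0.42. *Oasl1* (difference 1.77, edgeR adjusted p = 0.369) and *Dtx3l* (0.42, edgeR adjusted p = 0.381) followed. Without DOCA-CRE 1 the difference was positive for 17 members, with a median of −0.04, against 0.03 for all genes. Without DOCA-CRE 1 and Baseline-CRE 1 together it was positive for 26 of 37 members, with a median of 0.10, against 0.03 for all genes.

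DOCA-salt itself was compared within each virus arm, with the cohort confounded as stated. These comparisons share libraries with the Cre comparisons. The share of mitochondrial rRNA and the number of genes detected, given above, separated all DOCA-WT from all baseline libraries, and their part in these differences was not tested. In WT mice 27 of 38 members were on the higher side on DOCA-salt, against 49.9% of all genes. Of these 2 rose and 0 fell by the test, against 5.48% of all genes higher and 6.12% lower, and 3 were higher at an unadjusted p below 0.05, against 13.4%. *Stat2* was 0.45 ± 0.13 higher and *Ifit1* 0.99 ± 0.30 higher on the log2 scale (edgeR adjusted p = 0.0408 and 0.0420), and for both, every DOCA-WT library lay above every Baseline-WT library. In Cre mice 32 of 38 members were on the higher side, against 53% of all genes, and 17 were higher at an unadjusted p below 0.05, against 13.4%. By the test 3 members rose, against 2.69% of all genes: *Stat2* (0.64 ± 0.14, adjusted p = 0.0193), *Oas2* (1.57 ± 0.44, adjusted p = 0.0436) and *Irf7* (1.24 ± 0.35, adjusted p = 0.0490). For all 3 every DOCA-CRE library lay above every Baseline-CRE library. The share of all genes without overlap was not counted for either DOCA-salt comparison, so the lack of overlap does not set these members apart. *Irf7* differed by 0.82 ± 0.35 in WT mice (adjusted p = 0.137), with 1 baseline library in the DOCA-WT range. Without DOCA-CRE 1, edgeR called 0 members in Cre mice (6 were higher and 1 lower at an unadjusted p below 0.05, against 9.84% of all genes higher), with 381 of 14809 genes called, and without the library labelled DOCA-CRE 3 it called 13, with 1603 of 14617 genes called.

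Genes of the same pathway outside the 40 were counted from lists. Over all genes, 54.3% were on the higher side in Cre mice on DOCA-salt and 6.91% were higher at an unadjusted p below 0.05, and 48.6% and 4.86% were at baseline. None of 21 interferon genes reached the test. They had 205 counts together over 15 libraries, 14, 46 and 73 in DOCA-CRE, against 10 to 16 in DOCA-WT, and 1 to 4 in Baseline-CRE, against 1 to 7 in Baseline-WT. DOCA-CRE 1, which led the members, had 14 such counts, and the library labelled DOCA-CRE 3 had the most. Of 16 receptor and JAK-STAT genes, 15 were on the higher side on DOCA-salt (median 0.17) and 9 at baseline (median 0.04). Of 53 other interferon-stimulated genes tested, 45 were on the higher side on DOCA-salt (median 0.64, 17 higher at an unadjusted p below 0.05) and 46 at baseline (median 0.43, 17 higher). These genes shared the leading libraries of the members. DOCA-CRE 1 was the highest of the 15 libraries for 23 of the 53, against 16.4% of all genes, and Baseline-CRE 1 for 16, against 2.59%. For 15 sensing genes the medians were 0.04 and 0.04, and for 9 negative regulators −0.04 and −0.03. By edgeR 0 genes of these lists passed the test in either Cre comparison, with 1 receptor gene, 3 sensing genes and 1 negative regulator higher at an unadjusted p below 0.05 on DOCA-salt, and 1, 1 and 2 at baseline. Lowest by p on DOCA-salt were *Sp100*, a nuclear body protein (0.95, adjusted p = 0.145), and *Uba7*, the enzyme that activates ISG15 (1.20, adjusted p = 0.162). Lowest at baseline was *Gbp10* (4.20, adjusted p = 0.434), whose WT level rested on few counts.

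The genes of MHC class I and peptide loading, and those of MHC class II, followed Baseline-CRE 1 more than DOCA-CRE 1. Of 22 class I genes, 16 were on the higher side in each cohort (median 0.13 on DOCA-salt and 0.24 at baseline), and 8 at baseline against 2 on DOCA-salt were higher at an unadjusted p below 0.05. Of 8 class II genes, 3 were on the higher side on DOCA-salt (median −0.15) and 8 at baseline (median 0.75). At an unadjusted p below 0.05, 1 of them was higher on DOCA-salt and 0 at baseline. The baseline sums of the class II list overlapped, at 99.0 to 267 CPM in Baseline-CRE, against 106 to 170 CPM in Baseline-WT, with the 267 CPM in Baseline-CRE 1. Baseline-CRE 1 was the highest of the 15 libraries for 12 class I genes and 6 class II genes, and DOCA-CRE 1 for 2 and 0. *Tap1*, which pumps peptides to MHC class I, stood at 15.3 CPM in Baseline-CRE 1, 2.88 to 5.30 CPM in the other Baseline-CRE libraries and 2.38 to 5.25 CPM in Baseline-WT. *Irf1*, a transcription factor of the gamma response, stood at 15.4 CPM in Baseline-CRE 1, 3.71 to 6.04 CPM in the others and 4.54 to 4.96 CPM in Baseline-WT. The heavy chains *H2-K1* and *H2-D1* stood at 68.1 and 163 CPM in Baseline-CRE 1.

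Markers of other cells were followed beside these results. The 12 microglial markers summed to 282 to 456 CPM in DOCA-CRE, against 233 to 404 CPM in DOCA-WT, and to 283 to 466 CPM in Baseline-CRE, against 300.4 to 430.2 CPM in Baseline-WT. DOCA-CRE 1, which led the members, had the lowest microglial sum of its group (281.7 CPM), and Baseline-CRE 1 had the highest of its group (465.5 CPM). *Cx3cr1*, a microglial receptor, differed by 0.28 ± 0.22 on DOCA-salt and 0.08 ± 0.21 at baseline. The 8 astrocyte markers summed to 6192 to 7305 CPM in DOCA-CRE, against 5692 to 6576 CPM in DOCA-WT (6 on the higher side, median 0.16), and to 5960 to 6552 CPM in Baseline-CRE, against 5860 to 6609 CPM in Baseline-WT (3 on the higher side, median −0.08). DOCA-CRE 1 and Baseline-CRE 1 had the highest astrocyte sum of their groups, but neither was the highest of the 15 libraries for any of these markers. Apart from *Gfap*, the markers stood at 0.75-fold (*S100b*) to 1.60-fold (*Aqp4*) of the other DOCA-CRE libraries in DOCA-CRE 1. In Baseline-CRE 1 they stood at 0.89-fold (*Gja1*) to 1.17-fold (*Aqp4*) of the other Baseline-CRE libraries, so *Gfap* was not typical of the list. *Gfap*, an astrocyte filament protein, stood at 2.41-fold of the other DOCA-CRE libraries in DOCA-CRE 1 (837.3 CPM, within the DOCA-WT range of 583.2 to 962.3 CPM) and at 2.94-fold of the other Baseline-CRE libraries in Baseline-CRE 1 (596.2 CPM, against 58.2 to 284.7 CPM in Baseline-WT). None of 12 markers of T, B and NK cells reached the test, and they summed to 1.27 to 7.11 CPM in DOCA-CRE, against 0.61 to 3.90 CPM in DOCA-WT, and to 1.11 to 2.80 CPM in Baseline-CRE, against 0.42 to 1.70 CPM in Baseline-WT. *Cd3e*, which defines T cells, had 4, 11 and 20 counts in DOCA-CRE, the 4 being in DOCA-CRE 1. On DOCA-salt 10 of 10 endothelial and 5 of 5 red blood cell markers were also on the higher side in Cre mice (medians 0.18 and 0.88), and their sums did not overlap, at 436 to 470 and 23.4 to 36.1 CPM in DOCA-CRE, against 367 to 406 and 13.7 to 20.7 CPM in DOCA-WT. Serotonergic markers were lower, summing to 9.58 to 74.3 CPM in DOCA-CRE, against 89.4 to 239.5 CPM in DOCA-WT. *Th*, of catecholamine neurons, differed by −1.56 ± 0.41 (edgeR adjusted p = 0.147). Sex pattern was added as a term in an alternative fit with all libraries. On DOCA-salt 14 members were then higher at an unadjusted p below 0.05 instead of 22, against 6.94% of all genes, with a median of 0.64. At baseline 5 were instead of 7, against 4.49% of all genes, with a median of 0.32. The part of these cells in the interferon gene levels was not tested.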

How the data were processed

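Bilateral punches of the RVLM were profiled in 15 libraries: DOCA-CRE (3), DOCA-WT (4), Baseline-CRE (4) and Baseline-WT (4), grouped by their labels. The authors extracted RNA with TRIzol, made stranded low-input SMART-seq libraries, sequenced them on a NovaSeq, and aligned reads to GRCm38 (Gencode vM23) with STAR in MAPR-Seq. Which software did the read counting is not given in the sources used here. As deposited, 1 table holds raw, whole-number read counts for 55421 genes, with 0 unmapped sample columns. A further 6 deposited tables of the authors' own comparisons hold their log2 fold changes, FDR, copies of the counts and RPKM values, and were not used. The supplement of the study gives the DOCA-salt group sizes the other way round, and the labels were followed.

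The analysis used edgeR 4.0.16 under R 4.3.3. Of 21926 protein-coding genes, 14852 exceeded 1 CPM in 1 library or more. They were scaled by TMM, and a quasi-likelihood model with a term for each group took in the 15 libraries together. P-values were adjusted by Benjamini-Hochberg over all genes tested, and a gene was called at an adjusted p of at most 0.05. The common biological coefficient of variation was 0.192. Log2 differences are given ± SE and levels are CPM after TMM scaling. Single members also had exact two-sided permutation tests on log2(CPM + 0.5), whose smallest possible p was 0.0286. Scripts were tested on simulated counts.

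The members and lists were chosen with earlier results of these data known. Values in every library are given for the 8 members with the highest mean CPM, the 6 with the smallest p in each Cre comparison and in the mean of both, and the 3 with the smallest p in each other comparison. List genes are named by smallest p or as fixed examples. Equal replicate numbers did not mark paired libraries when checked. Between groups, the mean correlation was 0.0052 for pairs of the same number and −0.0012 for pairs of different numbers. Of 21 same-numbered pairs, 8 correlated above 0.1. No library was a copy of another. Alternatives were DESeq2 1.42.0, limma 3.58.1 voom with quality weights, DESeq2 size factors in edgeR, all biotypes, 2 other filters, a fit to the compared groups only, a replicate block, a sex-pattern term, a 2-fold limit, a pseudocount of 0.1 and leaving out each library. Leaving out DOCA-CRE 1 and Baseline-CRE 1 together was chosen after seeing the data. Depth was 19053970 to 30504796 counts per library, and precision rests on the number of libraries.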

Additional observations from a re-analysis of the deposited data

Results flagged for a closer look

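Among the 23 members with values given in every library, 4 values stood apart in 69 groups of 4 libraries by Dixon's gap test, which flags about 1 in 20 groups by chance. *Ddx58* stood at 10.87 CPM in DOCA-WT 3, with the next library at 7.884 CPM, and this was the WT library closest to the DOCA-CRE range. *Oasl1* stood at 1.005 CPM in the same library, with the next at 0.419 CPM. *Stat2* stood at 25.13 CPM in Baseline-CRE 1, with the next at 20.59 CPM, and Baseline-CRE 1 was also the highest library for *Gbp2*, *Psmb8* and *B2m*. *Ifi27* stood at 22.61 CPM in Baseline-WT 4, below the next library at 30.61 CPM. DOCA-CRE, with 3 libraries, could not be examined in this way.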

How the results depend on the processing

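In both Cre comparisons the median of the members was above 0 under every alternative run, with at least 35 members on the higher side on DOCA-salt and at least 30 at baseline, but calls and sizes moved. On DOCA-salt, the number of members called for Cre against WT was 0 by edgeR (3 of all genes), 2 by DESeq2 (281), 3 with a sex-pattern term without the library labelled DOCA-CRE 3 (517), and 0 to 2 when 1 library was left out (183 of all genes without the library labelled DOCA-CRE 3). With the sex-pattern term and all libraries it was 0 (0 of all genes), and 14 members instead of 22 were higher at an unadjusted p below 0.05. The median was 0.39 to 0.80 with 1 library left out and 0.39 without DOCA-CRE 1 and Baseline-CRE 1 together. For the difference of the Cre shifts, 17 to 35 members were positive with 1 library left out, with a median of −0.044 to 0.52, and without both libraries the median was 0.098. For WT on DOCA-salt, 1 member was called with the sex-pattern term, 0 with the 2-fold limit, and 0 to 2 with 1 library left out. For Cre on DOCA-salt against Cre at baseline, DESeq2 called 11 members (1689 of all genes), limma voom 0 (347), the replicate block 6 (658), the fit of all biotypes 6 (1399), the fit of the compared groups alone 0 (93), the sex-pattern term without the library labelled DOCA-CRE 3 called 5 (1667), and 0 (134) were called without both libraries, where edgeR called 3 (959) with all libraries. With 1 library left out the count there was 0 to 13 and the median 0.32 to 0.76. It was 0 without DOCA-CRE 1, Baseline-CRE 3 or Baseline-CRE 4, and 13 without the library labelled DOCA-CRE 3. The replicate number was not a pairing, and as a block it changed no call in either Cre comparison. *Stat2* passed in Cre mice under 20 of 26 alternatives and in WT mice under 16 of 26, *Ifit1* in WT mice under 18 of 26, *Oas2* in Cre mice under 12 of 26 and *Irf7* in Cre mice under 8 of 26. The cause of these moves was not tested. With 3 or 4 libraries a group, and 1 Cre library leading each cohort, differences between single members were not resolved, and *Isg15*, *Oas2*, *Oasl1* and *Zbp1* also rest on few reads.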

Other observations

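Genes outside the set were ranked by how closely their level followed the median of the members over the 15 libraries, as a description with no test. The 5 closest were *Rnf213* (Pearson r 0.907), *Uba7* (0.906), *Ifi204* (0.904), *Samhd1* (0.898) and *Themis2* (0.890), and the points share library depth and the lead of DOCA-CRE 1. *Rnf213*, a large ubiquitin ligase, stood at 146, 88.9 and 64.2 CPM in DOCA-CRE, against 54.3 to 67.8 CPM in DOCA-WT. *Uba7*, which starts the attachment of ISG15, stood at 9.68, 5.11 and 4.97 CPM in DOCA-CRE, against 2.21 to 3.77 CPM in DOCA-WT, without overlap.

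The immunity-related GTPases, which disrupt pathogen vacuoles, were led by a single library at baseline. *Irgm2* stood at 37.9 CPM in Baseline-CRE 1, against 6.07 to 7.88 CPM in the other Baseline-CRE libraries and 3.42 to 5.62 CPM in Baseline-WT. *Igtp* stood at 33.5 CPM there, against 3.64 to 7.02 CPM in the others and 2.38 to 3.99 CPM in Baseline-WT. *Iigp1*, named after its values were seen, stood at 32.2 CPM there, against 1.98 to 6.39 CPM in the other Baseline-CRE libraries. In DOCA-CRE 1 *Iigp1* stood at 21.8 CPM, 3.36-fold of the mean of the other DOCA-CRE libraries. The ratio of Baseline-CRE 1 to the other Baseline-CRE libraries was 5.51 for *Irgm2*, 6.2 for *Igtp*, 5.34 for *Nlrc5*, which drives MHC class I genes, and 4.28 for *Cd74*, the invariant chain of MHC class II. In *Isg15* and *Usp18* it was 1.44 and 0.91.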
